A study of Mus musculus with 2 samples.

Results

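The genes described here are 10 that encode proteins of elastic fibres and of the microfibrils around them: *Eln*, *Fbn1*, *Fbn2*, *Mfap2*, *Mfap4*, *Mfap5*, *Fbln1*, *Fbln2*, *Fbln5* and *Emilin1*. They are 10 of 31054 features in the count matrices. They were chosen by name for their role in the fibre, with earlier results of these data known. Single-cell RNA sequencing was done on rib repair callus at 4 days post-injury (dpi), after a 3 mm piece of rib had been resected, with 1 library of control mice (*Sox9*:CreER;*R26*:tdT;Smof/+) and 1 library of *Smo* cKO mice (*Sox9*:CreER;*R26*:tdT;Smof/f). Each library was made from 3 pooled animals aged 8 to 12 weeks. Both genotypes carried the *Sox9*:CreER driver, the tdTomato reporter and at least 1 floxed *Smo* allele, and both received 3 tamoxifen injections from day −7 to day −5, so the control animals had lost 1 *Smo* copy in recombined cells. Since *Sox9*:CreER acts in *Sox9*-expressing cells and their progeny only, a library also holds many cells that were never recombined. *Smo* encodes the signal transducer of the Hedgehog pathway, and the comparison asks what the callus expresses when *Smo* is removed from *Sox9*-lineage cells.

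Elastic fibres give a tissue recoil. Tropoelastin, the product of *Eln*, is laid down on a scaffold of fibrillin microfibrils and is then cross-linked by lysyl oxidases, while fibulins, microfibril-associated proteins and emilins sit on the fibre, guide its assembly and link it to cells. Microfibrils also occur without elastin, and through latent TGF-β binding proteins they hold growth factors in the matrix. In the skeletal system elastic fibres are known from tendon, ligament, fascia and elastic cartilage.

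The control matrix held 10747 cells and 105367110 UMIs (counted molecules), and the *Smo* cKO matrix 10512 cells and 112700220 UMIs. After the filter of at least 200 detected genes and under 10% mitochondrial UMIs, 10057 and 9507 cells remained, with medians of 8367 and 9092 UMIs per cell. Cells were sorted into classes by marker genes, none of which is one of the 10 genes. Connective-like cells, which carry *Prrx1*, *Pdgfra*, *Col6a3*, *Lum* or *Dcn* among other markers, numbered 6252 (62.2%) among control and 5148 (54.1%) among *Smo* cKO cells. The median connective-like cell had 54.2 and 50.4 connective marker UMIs per 10000, and at most 0.453 from the hematopoietic list and 0 from each of the other 6 class lists. Cell barcodes shared by the libraries numbered 613, and results without those cells are given where they differ. *Smo* itself stood at 19.2 UMIs per 1000000 (CPM) in control and 12.2 in *Smo* cKO connective-like cells, but where the counted reads lie relative to the floxed part of the gene is not given in the sources used here, so this level does not check the deletion. tdTomato UMIs were found in only 48 connective-like cells of the control and in 110 of the other library.

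Each genotype has a single library and thus no replicate, so differences are given as values without a test. Intervals are 95% intervals, exact except for the normal ones of values weighted to the control mix of subclasses. They cover counting error only, not the spread between animals or libraries. Those of UMI levels, ratios and shares of UMIs treat UMIs as independent, so they also leave out the spread between cells. A UMI level was not divided by transcript length. Sums over members, shares of UMIs between genes and the most abundant genes of a list describe counted UMIs only, and levels of different genes were not tested against each other. A change of at least 1.5-fold in either direction was used as a rule of size, and it is read beside the share of all genes at 50 CPM or more that pass the same size.

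*Fbln5* is the only member that passed the rule of size in the connective-like cells as a whole, and the bases before its annotated start are shown because the study removes a regulator of transcription through GLI factors. The gene lies on chromosome 12 (GRCm38, minus strand, 101746565 to 101819055). The set of RefSeq promoters used here holds start sites for 6 of the 10 members (*Fbn1*, *Mfap2*, *Fbln1*, *Fbln2*, *Fbln5* and *Emilin1*), with 9 entries in all. The 250 bases before the upstream *Fbln5* start (RefSeq, GRCm38.p6, chr12:101819120-101819369, minus strand, printed 5′ to 3′ along the gene) overlap no exon of GENCODE vM21, and capitals mark GC boxes.

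Fbln5: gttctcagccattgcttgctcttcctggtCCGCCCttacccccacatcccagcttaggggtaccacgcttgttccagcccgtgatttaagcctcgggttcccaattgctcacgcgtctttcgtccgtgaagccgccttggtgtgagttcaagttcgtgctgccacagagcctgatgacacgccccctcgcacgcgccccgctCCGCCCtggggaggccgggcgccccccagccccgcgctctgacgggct

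This stretch is 65.2% G or C, against a median of 52.4% over the same 250 bases of all promoters in that set, and it holds 2 GC boxes (GGGCGG or CCGCCC). A GC box was present in 5 of the 9 member entries and in 32.7% of all 32851 promoters. The GLI core (ACCACCC or GGGTGGT) was found in the *Fbn1* entry, 1 of 9, against 3.92% of all promoters. The *Fbln5* stretch shown here holds 0 GLI cores. The AP-1 site (TGACTCA or TGAGTCA), which 4.46% of all promoters hold, and the TATA box (TATAAA or TTTATA), which 12.4% hold, were found in none of the 9 member entries. A match describes letters in a window, and it is neither a bound site nor a cause of the levels that follow.

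The summed level of the members in connective-like cells was 2480 CPM for control and 2598 CPM for *Smo* cKO mice, with a log2 ratio of 0.07 (0.06 to 0.08), beside a median log2 ratio of 0.06 over the 2556 genes at 50 CPM or more. Beneath that near-equal sum the members diverged. *Mfap5*, *Mfap4*, *Fbln5* and *Eln* were higher in the *Smo* cKO library, and *Fbn2*, *Fbln2*, *Fbln1*, *Fbn1*, *Mfap2* and *Emilin1* were lower. Only *Fbln5* reached 1.5-fold, so 1 of 10 members was higher and 0 were lower by that size, while 2.11% of all genes were higher and 1.06% lower. *Fbln5* itself lies under the 50 CPM minimum of that comparison, and without a minimum the shares over 18624 genes were 10.4% and 10.3%.

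**Figure D1:**
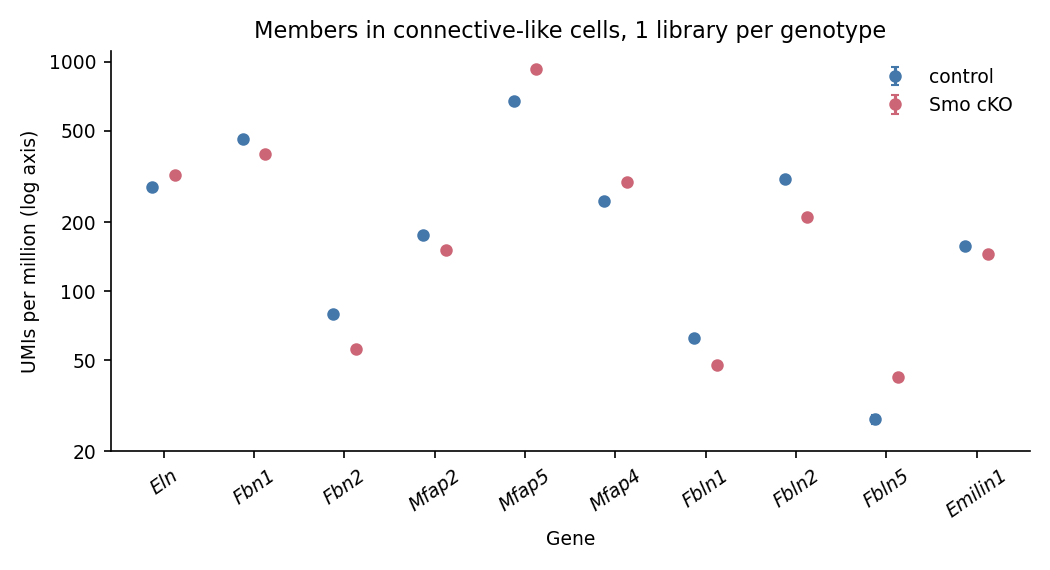
Level of each member in connective-like cells, in CPM on a log axis, with 1 point per library (control blue, *Smo* cKO red) and exact 95% Poisson intervals that are mostly smaller than the points. *Mfap5* stands at 677 and 929, *Fbln5* at 27.6 and 42.1, *Fbn2* at 79.4 and 55.9 and *Fbln2* at 307 and 211 in control and *Smo* cKO cells.

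*Eln*, which encodes the elastin core of the fibre and lies on chromosome 5 (GRCm38, 134702593 to 134747323, minus strand), stood at 284 CPM (281 to 288) in control and 320 CPM (316 to 324) in *Smo* cKO connective-like cells. The log2 ratio was 0.17 (0.15 to 0.20), or 0.11 once the median shift of all genes was taken off. *Eln* UMIs were distributed over the cells very unevenly. The 10% of connective-like cells with most *Eln* UMIs held 75.1% (control) and 75.3% (*Smo* cKO) of all *Eln* UMIs, where the same share ran from 28.1% (*Fbn1*) to 55.3% (*Fbln5*) for the other members in the control. No UMI of *Eln* was counted in 50.6% of control and 46.7% of *Smo* cKO connective-like cells, and a single cell held up to 337 and 237 UMIs. Those shares were taken without thinning, at median depths of 11244.5 and 13913 UMIs per cell. After each cell was thinned to 2000 UMIs, *Eln* was counted in 25.4% (24.3 to 26.5) of control connective-like cells. The thinned share in *Smo* cKO connective-like cells was 24.9% (23.7 to 26.2), so the shares were close at equal depth.

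To see which connective cells carry the members, connective-like cells were divided into subclasses by further markers. The *Sfrp4 Col14a1* fibroblast subclass (*Sfrp4*, *Col14a1*, *Ptx3*, *Dpt*, *Clec3b*) held 2204 control and 1139 *Smo* cKO cells, the activated subclass (*Tnc*, *Inhba*, *Timp1*, *Loxl2*, *Cthrc1*) 2261 and 2311, the skeletogenic subclass (*Fmod*, *Acan*, *Col11a1*, *Aspn*, *Ptn*, *Sox9*, *Col2a1*) 1244 and 1145, the adventitial subclass (*Pi16*, *Dpp4*, *Cd34*, *Ly6c1*, *Sema3c*, *Cd55*) 300 and 130, and the tendon subclass (*Tnmd*, *Scx*, *Mkx*, *Kera*, *Thbs4*) 198 and 317. Osteoblast-like cells (41 and 44) and *Serpinb2 Dlk1* cells (4 and 62) were too few to compare. Some of these markers differed between the libraries themselves. *Clec3b* was at 61.0 and 24.0 CPM and *Acan* at 71.9 and 43.9 CPM in control and *Smo* cKO connective-like cells, so the number of cells per subclass is not read as a difference. In addition, 20.2% of control and 25.4% of *Smo* cKO connective-like cells lay near a boundary between subclasses.

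*Eln* was a gene of the adventitial and *Sfrp4 Col14a1* subclasses in the control. Its level there was 1215 CPM in adventitial and 748 CPM in *Sfrp4 Col14a1* cells, followed by 432 CPM in tendon, 141 CPM in skeletogenic and 41.2 CPM in activated cells, and no intervals of neighbours in that order overlapped. The *Smo* cKO library had a different order, with 1131 CPM in *Sfrp4 Col14a1*, 554 CPM in tendon, 468 CPM in adventitial, 311 CPM in skeletogenic and 77.3 CPM in activated cells. Of the 10% of control cells with most *Eln* UMIs, 64.4% were *Sfrp4 Col14a1* fibroblasts and 15.3% adventitial, while activated cells, 36.2% of all connective-like cells, gave 4.95%. In the *Smo* cKO library *Sfrp4 Col14a1* fibroblasts gave 55.3%, skeletogenic cells 20.8% and adventitial cells 3.30%. Their shares of all *Smo* cKO connective-like cells were 22.1%, 22.2% and 2.53%. *Sfrp4 Col14a1* fibroblasts were 35.3% of control connective-like cells, and 18.3% (control) and 25.0% (*Smo* cKO) of them were among the 10% with most *Eln* UMIs. The 10% of cells with most *Eln* UMIs were also rich in other members. In the control they carried *Mfap4* at 754 CPM against 202 CPM in the remaining connective-like cells, and *Fbln5* at 70.8 against 23.7 CPM. *Emilin1*, by contrast, stood at 132 against 160 CPM.

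**Figure D2:**
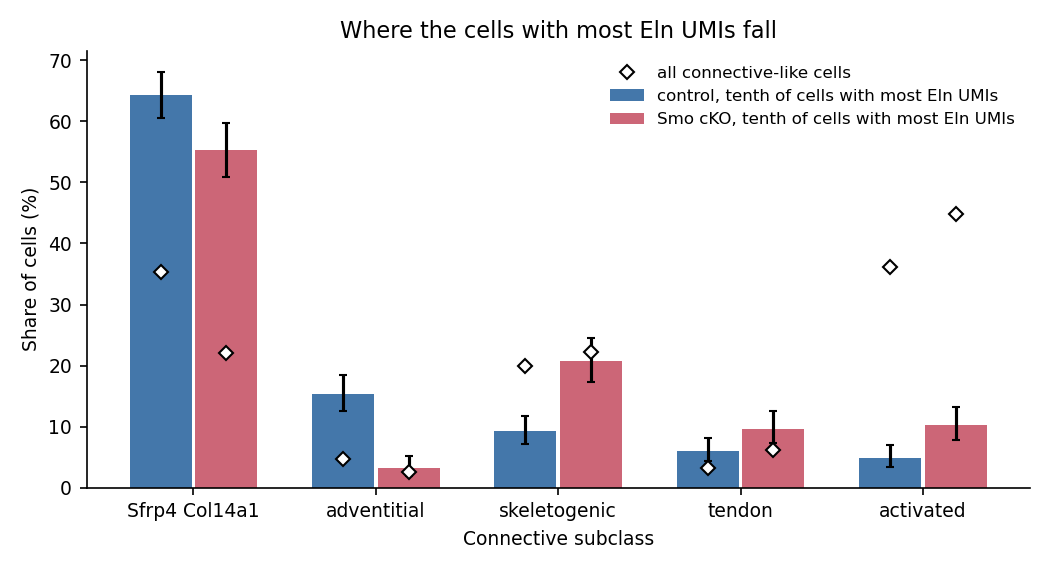
Share of cells (%) by connective subclass among the 10% of connective-like cells with most *Eln* UMIs (bars, with exact 95% binomial intervals) and among all connective-like cells of the same library (diamonds), for control (blue, 626 cells) and *Smo* cKO (red, 515 cells). *Sfrp4 Col14a1* fibroblasts make up 64.4% and 55.3% of these cells, and the activated subclass lies far under its share of all cells in both libraries.

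Within subclasses the *Eln* ratio was larger than over all connective-like cells, and it pointed both ways. The log2 ratio of *Smo* cKO over control was 1.14 (1.07 to 1.21) in skeletogenic, 0.91 (0.82 to 0.99) in activated, 0.60 (0.56 to 0.63) in *Sfrp4 Col14a1* and 0.36 (0.26 to 0.46) in tendon cells, but −1.38 in adventitial cells, with an interval that ended at −1.25. With subclasses weighted to the control library's share of UMIs, *Eln* stood at 284 and 412 CPM, a log2 ratio of 0.54 against 0.17 unweighted. *Sfrp4 Col14a1* cells gave 24.6% of connective UMIs in control and 15.3% in *Smo* cKO mice. Scoring the subclasses without the 4 markers that differed by 1.5-fold or more (*Ptx3*, *Clec3b*, *Acan*, *Col2a1*) lowered the *Eln* ratio to 0.44 in activated and 0.45 in *Sfrp4 Col14a1* cells, both under 1.5-fold, and to 0.97 in skeletogenic cells. With at most 2000 genes per cell the skeletogenic ratio was 0.57, also under 1.5-fold. In tendon cells the *Eln* ratio was −0.06 without proliferating cells and 0.00 as a mean over cells, so its direction there was not stable. Without barcodes found in both libraries the ratio in activated cells was 1.12.

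Some markers of these and of neighbouring subclasses also differed between the libraries in the cells named skeletogenic and adventitial. Those given here are not the full lists. In skeletogenic cells *Fmod*, a marker of that subclass, was at 405 and 221 CPM in control and *Smo* cKO mice, and *Dpt*, a fibroblast marker, stood at 107 and 184 CPM. Other markers of the same lists went both ways over all connective-like cells. The skeletogenic marker *Col2a1* was at 1.80 and 7.19 CPM there, and *Acan* at 71.9 and 43.9 CPM. The fibroblast markers *Ptx3*, at 184 and 118 CPM, and *Clec3b*, at 61.0 and 24.0 CPM, were lower in *Smo* cKO mice. Values over all connective-like cells also depend on the mix of subclasses, so they do not give the levels within skeletogenic cells. In adventitial cells *Pi16* was at 279 and 164 CPM, *Sfrp4* at 938 and 440 CPM and *Tnc*, a marker of the activated subclass, at 135 and 362 CPM. Of the adventitial cells, 291 of 300 in the control and 109 of 130 in the *Smo* cKO library were called not proliferating. The part of these markers in the *Eln* ratios was not tested.

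Proliferating cells, called from at least 3 of 8 cell-cycle markers, made up 26.4% of control and 34.8% of *Smo* cKO connective-like cells. They carried little *Eln*, at 77.1 CPM against 434 CPM in the other control connective-like cells. In the *Smo* cKO library the values were 138 and 504 CPM. The log2 ratio between the libraries was 0.84 in proliferating and 0.22 in the other connective-like cells. Activated cells, which gave 1047 of the 1653 proliferating control cells, had the reverse order, with ratios of 0.38 in proliferating and 1.49 in other cells, and their control level was 42.9 CPM in proliferating and 39.0 CPM in other cells. *Sfrp4 Col14a1* cells had 0.73 and 0.68 and skeletogenic cells 1.71 and 1.05. The control levels of proliferating and other cells were 318 and 817 CPM in *Sfrp4 Col14a1* cells and 53.0 and 209 CPM in skeletogenic cells. The pooled contrast therefore mixes subclasses of different *Eln* level, and *Eln* was also lower in proliferating cells within these latter subclasses of the control.

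The fibrillins form the backbone of the microfibril. *Fbn1*, on chromosome 2 (125300594 to 125507993, minus strand), was counted in 92.5% of control and 91.8% of *Smo* cKO connective-like cells without thinning. After each cell was thinned to 2000 UMIs, the shares were 58.5% (57.2 to 59.7) and 50.6% (49.2 to 52.0), lower in the *Smo* cKO library. The level of *Fbn1* was 462 CPM (457 to 466) and 397 CPM (392 to 401), a log2 ratio of −0.22 (−0.24 to −0.20). Its highest level was in adventitial cells, at 1030 and 944 CPM, then in *Sfrp4 Col14a1* cells, at 656 and 631 CPM, and the ratio stayed between −0.22 (activated) and 0.07 (tendon) in the 5 subclasses.

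*Fbn2*, the fibrillin known best from development, stood at 79.4 CPM (77.5 to 81.3) in control and 55.9 CPM (54.3 to 57.6) in *Smo* cKO connective-like cells, a log2 ratio of −0.50 (−0.56 to −0.45). It was highest in tendon cells, at 159 and 130 CPM. In the control, skeletogenic cells came next, at 102 CPM against 74.4 CPM in *Sfrp4 Col14a1* cells. In the *Smo* cKO library skeletogenic cells stood at 64.6 CPM (60.7 to 68.6) and *Sfrp4 Col14a1* cells at 71.4 CPM (66.8 to 76.3). The log2 ratio was −0.65 (−0.77 to −0.54) in skeletogenic and −0.70 (−0.78 to −0.61) in activated cells, both past 1.5-fold, and −0.06 (−0.18 to 0.06) in *Sfrp4 Col14a1* cells. Among fibrillin UMIs, *Fbn2* took 15.1% (14.6 to 15.7) in control and 11.4% (10.9 to 11.9) in *Smo* cKO activated cells, and 10.2% in both libraries in *Sfrp4 Col14a1* cells. A difference in *Fbn2* was thus not detectable over all *Sfrp4 Col14a1* fibroblasts at this depth, and whether the subclasses differ was not tested. In proliferating *Sfrp4 Col14a1* cells the log2 ratio was −0.40 (−0.67 to −0.13), and in the other cells of that subclass it was 0.0028 (−0.13 to 0.14). When only cells with at most 2000 genes were kept, the ratio was 0.086 in activated and −0.22 in skeletogenic cells, and it was −0.54 in skeletogenic cells without proliferating cells and −0.52 in activated cells after thinning, so both calls were lost.

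*Mfap2* and *Mfap5* encode small glycoproteins that bind fibrillin, and *Mfap4* encodes a fibrinogen-related protein of the elastic fibre. *Mfap5* stood at 677 CPM (671 to 682) in control and 929 CPM (922 to 936) in *Smo* cKO connective-like cells, a log2 ratio of 0.46 (0.44 to 0.47). It was the one member higher in the *Smo* cKO library in all 5 subclasses with its interval above 0, at log2 ratios of 0.43 in *Sfrp4 Col14a1*, 0.45 in activated, 0.52 in skeletogenic, 0.74 in tendon and 0.42 in adventitial cells. In adventitial cells the median gene was higher by 0.25 on the log2 scale, which leaves 0.17 for *Mfap5*. After each cell was thinned to 2000 UMIs, *Mfap5* was counted in 62.7% (61.4 to 63.9) of control and 72.2% (70.9 to 73.4) of *Smo* cKO connective-like cells. The same share in hematopoietic-like cells, which should lack these genes, was 7.86% and 12.2%. Cells under 2000 UMIs were left out of all thinned values, among them 762 control and 630 *Smo* cKO hematopoietic-like cells. Before thinning, the median depth was 11244.5 and 13913 UMIs in connective-like cells and 2723 and 3216 in hematopoietic-like cells.

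*Mfap2* stood at 176 CPM (173 to 179) and 152 CPM (149 to 155), a log2 ratio of −0.21 (−0.25 to −0.18). Weighted to the control mix of subclasses, the log2 ratio was −0.02 (−0.06 to 0.01). Its level was 356 and 343 CPM in *Sfrp4 Col14a1* cells and 66.4 and 72.0 CPM in activated cells. *Mfap5* thus took 79.3% of *Mfap2* plus *Mfap5* UMIs in control and 85.9% in *Smo* cKO connective-like cells, and from 68.8% (*Sfrp4 Col14a1*) to 90.9% (activated) across the 5 subclasses of the control.

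*Mfap4* was at 248 CPM (244 to 251) in control and 298 CPM (295 to 302) in *Smo* cKO connective-like cells, a log2 ratio of 0.27 (0.24 to 0.29). The log2 ratio was 0.83 (0.77 to 0.88) in skeletogenic, 0.65 (0.59 to 0.72) in activated, 0.54 (0.46 to 0.63) in tendon, 0.33 (0.29 to 0.37) in *Sfrp4 Col14a1* and −0.62 (−0.77 to −0.47) in adventitial cells. The skeletogenic levels behind this were 222 and 393 CPM. Thinned to 2000 UMIs, 29.0% (26.4 to 31.7) of control and 42.9% (40.0 to 46.0) of *Smo* cKO skeletogenic cells had a *Mfap4* UMI.

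**Figure D3:**
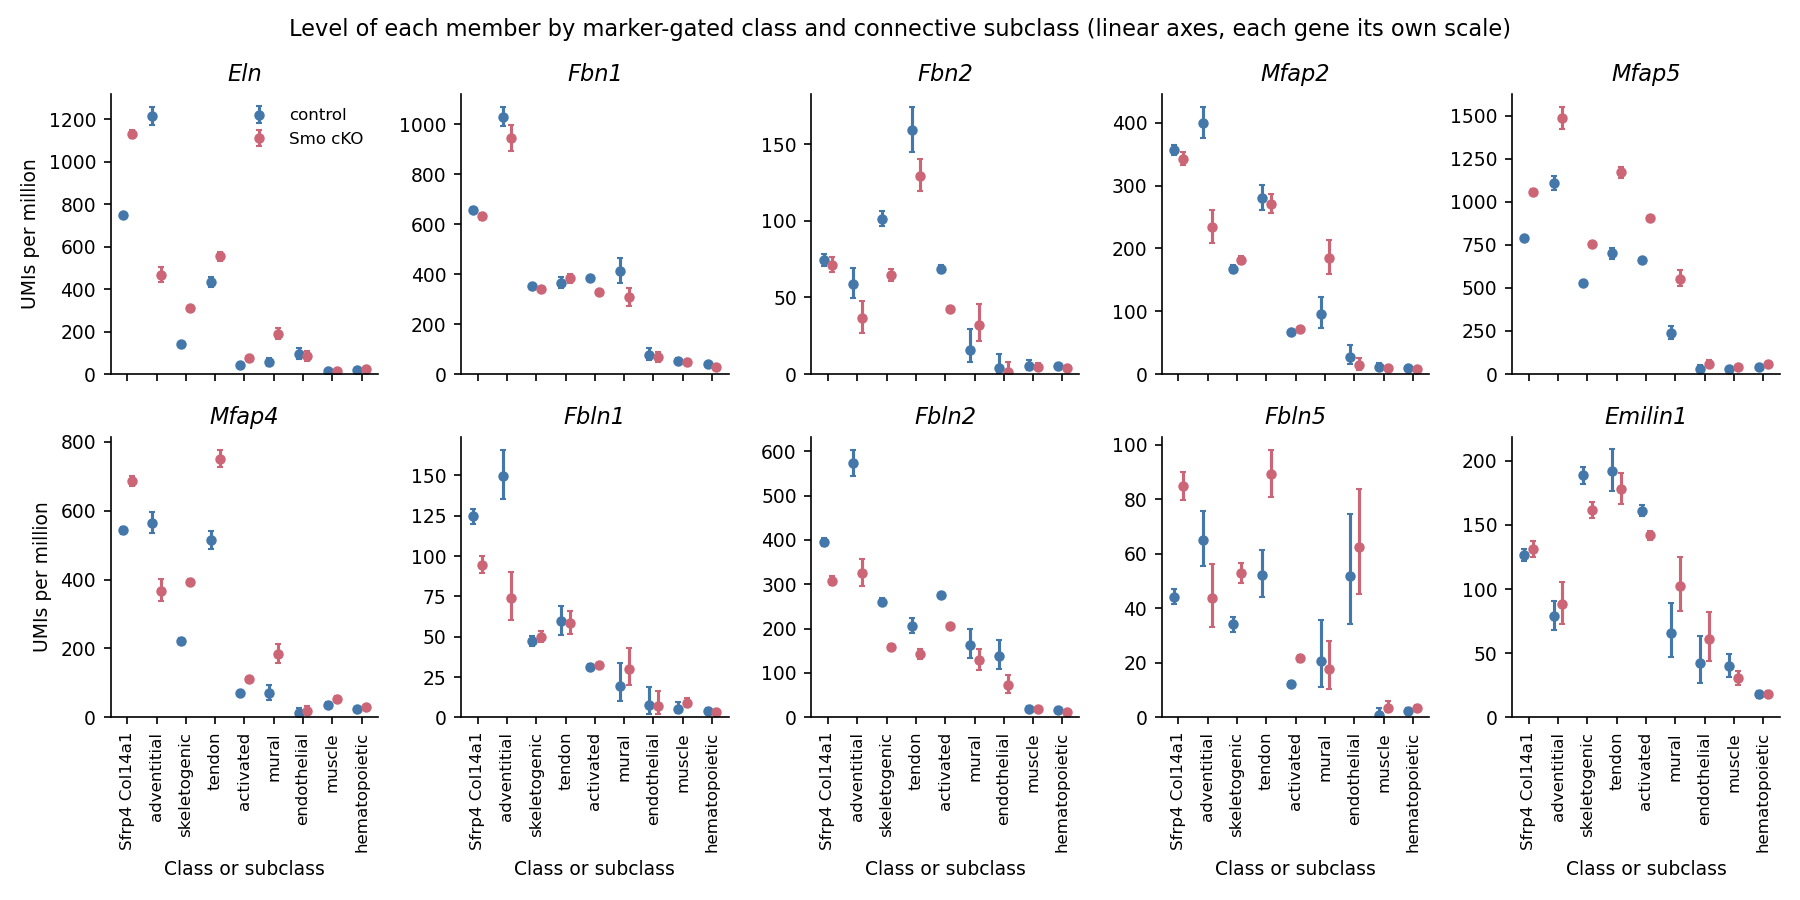
Level of each member in CPM (linear axes from 0, 1 panel per gene with its own scale) in 5 connective subclasses and 4 other classes, with 1 point per library (control blue, *Smo* cKO red) and exact 95% Poisson intervals. *Eln* stands at 1215 and 468 in adventitial cells and is higher in the *Smo* cKO library in the other 4 subclasses, *Fbn2* peaks in tendon cells at 159 and 130, and hematopoietic-like cells reach at most 60.3 (*Mfap5*, *Smo* cKO).

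The fibulins bridge elastin, microfibrils and the cell surface. *Fbln5*, a short fibulin that binds elastin and integrins, stood at 27.6 CPM (26.5 to 28.7) in control and 42.1 CPM (40.7 to 43.6) in *Smo* cKO connective-like cells. The log2 ratio was 0.61 (0.53 to 0.69), and 0.55 after the median shift of all genes, which is under 1.5-fold. In *Sfrp4 Col14a1* cells *Fbln5* was at 44.3 and 84.8 CPM, a log2 ratio of 0.94 (0.81 to 1.07), and activated (0.81), tendon (0.77) and skeletogenic cells (0.63) also passed 1.5-fold. After thinning to 2000 UMIs the ratio was 0.16 in tendon and 0.46 in skeletogenic cells, under 1.5-fold in both. Adventitial cells went the other way, at 65.1 and 43.6 CPM or −0.58 (−1.03 to −0.14), from 165 and 60 UMIs. Thinned to 2000 UMIs, 8.40% (7.26 to 9.67) of control and 15.9% (13.8 to 18.2) of *Smo* cKO *Sfrp4 Col14a1* cells had a *Fbln5* UMI.

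*Fbln2*, which is found in basement membranes and on microfibrils, stood at 307 CPM (304 to 311) and 211 CPM (208 to 214), a log2 ratio of −0.54 (−0.57 to −0.51). It was lower in all 5 subclasses, with log2 ratios of −0.82 in adventitial, −0.72 in skeletogenic, −0.53 in tendon, −0.42 in activated and −0.36 in *Sfrp4 Col14a1* cells, and each interval lay under 0. Over all connective-like cells *Fbln2* became 1.5-fold lower when the median shift of all genes was taken off (−0.60), without proliferating cells (−0.61), as a mean over cells (−0.59), after thinning (−0.63) and with at most 2000 genes (−0.81). After thinning to 2000 UMIs, 43.9% (42.7 to 45.2) of control and 31.5% (30.2 to 32.8) of *Smo* cKO connective-like cells had a *Fbln2* UMI. *Fbln2* was the only member besides *Mfap5* whose direction was the same in all 5 subclasses with every interval clear of 0.

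*Fbln1*, which binds fibronectin and elastic fibres, was at 62.2 CPM (60.5 to 63.9) and 47.7 CPM (46.2 to 49.2), a log2 ratio of −0.38 (−0.44 to −0.32). It was lower in *Sfrp4 Col14a1* cells, at 125 and 94.7 CPM, and in adventitial cells, at 150 and 74.2 CPM. The *Sfrp4 Col14a1* log2 ratio of *Fbln1* ran from −0.51 to 0.14 under 12 alternative settings, of which 11 kept its sign. In proliferating cells of that subclass it was 0.20 (−0.08 to 0.49), and in the others −0.43 (−0.54 to −0.32). In activated, skeletogenic and tendon cells the log2 ratios were 0.03, 0.08 and −0.03, and each interval included 0. *Emilin1*, a glycoprotein between elastin and microfibrils that also restrains TGF-β processing, stood at 157 CPM (155 to 160) and 145 CPM (143 to 148), a log2 ratio of −0.11 (−0.15 to −0.08). Its control levels were 78.9 CPM in adventitial, 126 in *Sfrp4 Col14a1*, 161 in activated, 188 in skeletogenic and 192 in tendon cells, the last 2 with overlapping intervals.

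**Figure D4:**
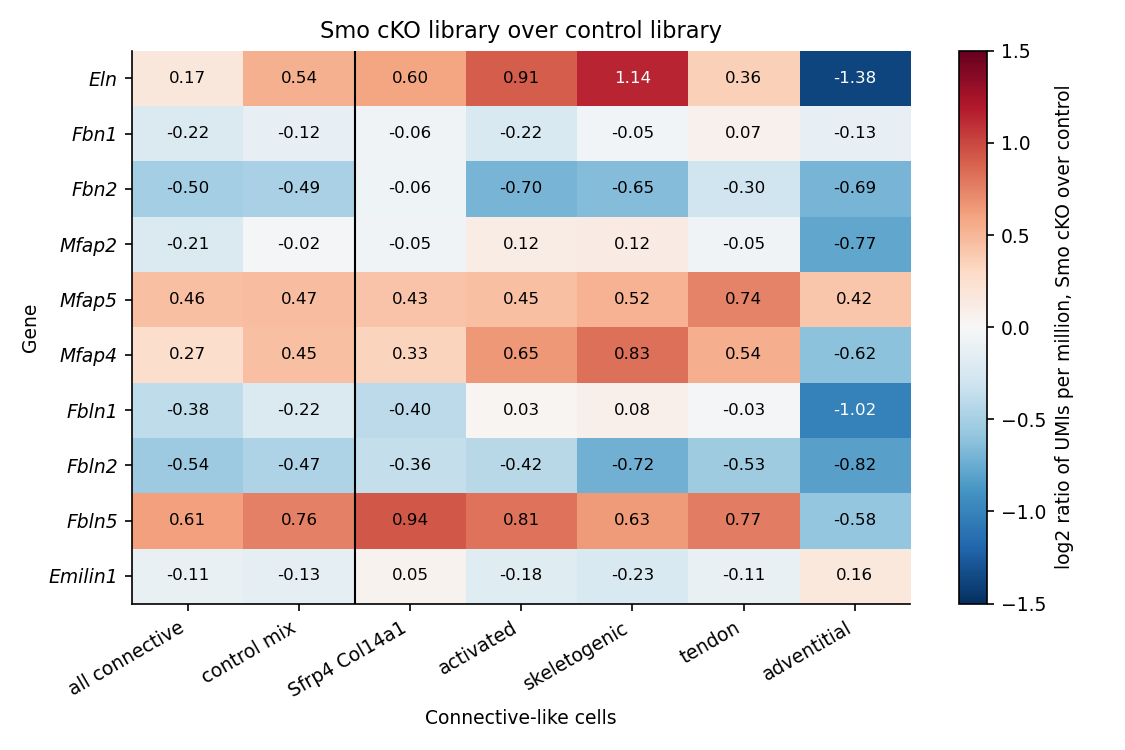
Log2 ratio of CPM, *Smo* cKO over control, for each member (rows) in all connective-like cells, in all connective-like cells weighted to the control mix of subclasses, and in 5 subclasses (columns), with red for higher and blue for lower in the *Smo* cKO library. *Eln* ranges from 1.14 in skeletogenic to −1.38 in adventitial cells, *Mfap5* is above 0 and *Fbln2* below 0 in every column.

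Counted by the rule of size, 3 members were higher (*Eln*, *Mfap4*, *Fbln5*) and 2 lower (*Fbn2*, *Fbln2*) in skeletogenic cells, where 2.66% of all genes were higher and 0.979% lower. In activated cells 3 were higher (*Eln*, *Mfap4*, *Fbln5*) and 1 lower (*Fbn2*), beside 2.73% and 0.664% of all genes. *Fbln5* lies under the 50 CPM minimum in activated cells, and without a minimum 10.8% of 17185 genes were higher and 9.64% lower there. *Sfrp4 Col14a1* cells had 2 higher (*Eln*, *Fbln5*) and 0 lower, with 6.89% and 1.78% of all genes past the same size and a median gene at 0.11 on the log2 scale. *Eln* falls under 1.5-fold there once that shift is taken off, at 0.48, while *Fbln5* keeps 0.82. Tendon cells had 2 higher (*Mfap5*, *Fbln5*) and 0 lower, beside 2.62% and 1.12%. At the control mix of subclasses, 1 member was higher (*Fbln5*) and 0 lower, beside 2.4% and 0.827%. There too *Fbln5* lies under the 50 CPM minimum, at 27.6 CPM in control and 46.6 CPM in *Smo* cKO cells.

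Adventitial cells stood apart, with 0 members higher and 6 lower (*Eln*, *Fbn2*, *Mfap2*, *Mfap4*, *Fbln1*, *Fbln2*). There 28.7% of all 2688 genes were higher by 1.5-fold and 8.04% lower, and the median gene was higher by 0.25 on the log2 scale, so the 2 sets of adventitial cells differed in far more than these genes. Of the 6 calls, *Fbn2* (from 50 *Smo* cKO UMIs) was lost after thinning, at −0.06, *Mfap2* as a mean over cells, at −0.46, and *Mfap4* under 5 alternatives, with −0.03 after thinning. The median over the 10 members was −0.66 on the log2 scale. In the other subclasses the member medians were −0.0015 in *Sfrp4 Col14a1*, 0.07 in activated, 0.10 in skeletogenic and 0.02 in tendon cells.

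Thinned to 2000 UMIs, a connective-like cell had counts for 3.16 (control) and 2.99 (*Smo* cKO) of the 10 members on average. Adventitial cells had 4.49 and 3.73, *Sfrp4 Col14a1* cells 4.02 and 4.16, skeletogenic cells 2.71 and 2.90 and activated cells 2.38 and 2.37. A connective-like cell without any of the 10 was rare, at 4.65% and 4.63%. The share of cells with a UMI, averaged over the members, was 31.6% and 29.9%, whereas without thinning it was higher by 0.71 percentage points in the *Smo* cKO library, whose cells were deeper.

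**Figure D5:**
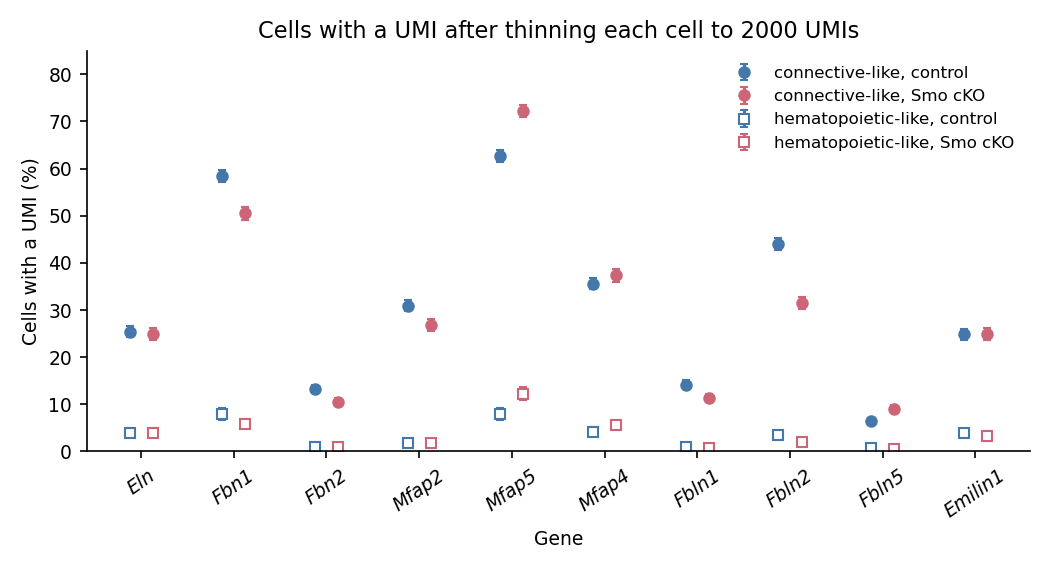
Share of cells with a UMI (%) for each member after each cell was thinned to 2000 UMIs, in connective-like cells (filled circles) and hematopoietic-like cells (open squares) of the control (blue) and *Smo* cKO (red) library, with exact 95% binomial intervals. Cells under 2000 UMIs are left out (252 control and 177 *Smo* cKO connective-like, 762 and 630 hematopoietic-like cells). *Mfap5* goes from 62.7% to 72.2% and *Fbln2* from 43.9% to 31.5% in connective-like cells, and hematopoietic-like cells reach 12.2% at most.

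Outside the connective-like class the summed member level ran from 180 and 191 CPM (control and *Smo* cKO) in hematopoietic-like cells through 213 and 232 in muscle-like, 486 and 448 in endothelial-like and 1156 and 1731 in mural-like cells to 1750 and 1946 CPM in epithelial-like or mesothelial-like cells. The last class held only 15 and 32 cells. It carried *Eln* at 502 CPM (70 UMIs) and 697 CPM (326 UMIs) and *Fbln1* at 538 CPM (75 UMIs) and 239 CPM (112 UMIs), each above its connective level, while *Emilin1* rested on 3 and 9 UMIs. Hematopoietic-like cells held 5.43% to 12.5% of the connective CPM level of each member, where *Col1a1*, *Col1a2* and *Col3a1*, collagens of connective cells, lay at 4.77% to 5.83%. *Emilin1* was highest in both libraries, at 11.3% and 12.5%, and it also reached 25.4% and 21.0% in muscle-like cells. Shares within the collagens' range were those of *Mfap2* (5.43%) in *Smo* cKO and of *Fbln2* (5.66%) and *Mfap5* (5.79%) in control mice. In the other library each of these lay above that range, at 5.91% for *Mfap2*, 5.84% for *Fbln2* and 6.49% for *Mfap5*. Whether any of these counts come from free RNA was not tested. Endothelial-like cells, 55 and 63 in number, carried *Fbln5* at 51.7 CPM (28 UMIs) and 62.4 CPM (44 UMIs), which is 188% and 148% of the connective level, and *Fbln2* at 139 and 72.3 CPM. Mural-like cells (51 and 57 cells) had *Eln* at 56.0 CPM (35 UMIs) and 189 CPM (183 UMIs), with *Mfap5* at 238 and 554 CPM.

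Connective-like cells with a tdTomato UMI, the reporter of recombination, were few. The 48 control and 110 *Smo* cKO cells carried *Eln* at 323 and 176 CPM, a log2 ratio of −0.88 (−1.11 to −0.64), *Fbn2* at 98.0 and 42.7 CPM (−1.20, −1.65 to −0.75), *Fbln1* at 72.8 and 35.4 CPM (−1.04) and *Mfap5* at 585 and 857 CPM (0.55, 0.40 to 0.70). For *Eln* this direction was opposite to that of the connective-like class as a whole, and for *Fbn2*, *Fbln1* and *Mfap5* it was the same. *Emilin1* also had the other sign, at 0.17, but with an interval from −0.13 to 0.48. *Fbn1*, *Mfap2*, *Mfap4*, *Fbln2* and *Fbln5* kept theirs. The *Eln* ratio rests on 244 and 412 UMIs of a gene held mostly by few cells. Median depth of the cells with a tdTomato UMI was 13950.5 UMIs in control and 19848.5 in *Smo* cKO mice. tdTomato was also counted in hematopoietic-like cells, with 8 and 11 UMIs, and the mix of subclasses among these cells was not held equal.

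The other genes of elastic fibre assembly were taken from 6 lists with 35 genes. In connective-like cells 18 of them were at 20 CPM or more in either library, and 1 was higher and 1 lower by 1.5-fold, beside 2.16% and 1.13% of all 5144 genes at that level. Both belong to the fibulin and emilin list (4 of 8 at 20 CPM or more): *Fbln7*, a short fibulin, stood at 14.5 and 30.9 CPM, a log2 ratio of 1.10 (1.00 to 1.20), and *Hmcn1*, a very large fibulin-related protein, at 23.6 and 13.4 CPM or −0.81 (−0.92 to −0.70). The most abundant of that list were *Efemp2*, needed for elastin cross-linking, at 170 and 174 CPM, and *Emilin2* at 32.5 and 28.8 CPM. For cross-linking enzymes 0 of 4 passed the size, with *Lox* at 619 and 529 CPM and *Loxl2*, also a marker of the activated subclass, at 418 and 426 CPM.

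Latent TGF-β binding proteins gave 0 of 4, with *Ltbp1* at 85.9 and 91.3 CPM and *Ltbp2* at 78.5 and 83.0 CPM. Integrins gave 0 of 4, with *Itgb1* at 381 and 385 CPM and *Itga5* at 219 and 228 CPM. Among proteases that can cleave elastin 0 of 2 passed, with *Mmp2* at 395 and 302 CPM and *Ctsk* at 134 and 128 CPM. The ADAMTS family members of microfibrils all lay under 20 CPM.

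Over 19 groups of at least 50 cells (class or subclass by library), the gene most like each member by Pearson correlation of log2(CPM + 10) among the 2556 genes was *Igf1* for *Eln* (0.96), *Fstl1* for *Fbn1* (0.98), *Prrx2* for *Fbn2* (0.98), *Mmp2* for *Mfap2* (0.98), *Tmem45a* for *Mfap5* (0.98), *Ogn* for *Mfap4* (0.97), *Tmem100* for *Fbln1* (0.98), *Crtap* for *Fbln2* (0.96), *Tshz2* for *Fbln5* (0.93) and *Wisp1* for *Emilin1* (0.96). The next in order were *Fcgrt* and *Igfbp4* for *Eln* and *Prnp* and *Gem* for *Fbln5*. Among the members, *Eln* was most like *Fbln1* (0.91), *Fbn1* and *Mfap5* were most like each other (0.94), *Mfap2* and *Fbln1* most like each other (0.95), and *Fbn2* and *Emilin1* most like each other (0.90). The groups share 2 libraries, and much of each correlation is the contrast of connective with other cells, so these values describe likeness of pattern only.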

How the data were processed

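Per the labels and the study's methods, the authors pooled the calluses of 3 animals per genotype, made 10x single-cell libraries and counted UMIs with Cell Ranger 3.0.2 against mm10. The deposited matrices hold raw UMI counts per gene and cell barcode, with no normalization. The study's methods state default parameters for Cell Ranger and name no intron setting.

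Cells with at least 200 genes and under 10% of UMIs on the 13 mt- genes were kept, where the study's methods also cap genes at 2000, which was run as an alternative because it removes most connective-like cells. A cell entered a class with at least 3 of its markers (mural 4) and 8 marker UMIs per 10000 (connective, hematopoietic) or 4 (others). No doublet caller was run. Cells that passed gates of more than 1 class (522 control, 702 *Smo* cKO) were left out as mixed, except that mural and epithelial or mesothelial gates took precedence over connective, and 514 and 456 cells passed none. Small subclasses (osteoblast, tendon, *Serpinb2 Dlk1*, adventitial) were gated at 4 marker UMIs per 10000 (tendon 10), and the other cells went to the highest mean z-score of 3 marker lists. A margin under 0.25 between the highest 2 scores counted as near a boundary. The gate values were set after seeing the data. UMIs were summed per group and library and given as UMIs per 1000000 (CPM). Ratios carry exact conditional Poisson intervals, values weighted to the control mix carry normal ones, and shares carry exact binomial ones. The ratio, its interval and the 1.5-fold rule were run on simulated Poisson counts, summed over all connective-like cells, with 200 changed genes. Those counts hold no spread between cells, animals or libraries, so they check the calculation only and not whether the intervals are wide enough for these data.

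The members and gene lists were chosen with earlier results of these data known. The text names all 10 members, the list genes past 1.5-fold and the 2 most abundant of each list, and for each member the genes most like it, the 3 leading ones having been computed. Markers are named where they bear on a subclass. Coordinates come from GENCODE vM21 (GRCm38). *Eln*, *Fbn1*, *Fbn2* and *Mfap4* overlap a gene on the opposite strand, which a stranded count would keep apart. The study's methods name no strand setting beyond the default parameters of Cell Ranger. Python 3.11.15, numpy 2.4.6, scipy 1.17.1, pandas 2.3.3 and matplotlib 3.10.9 were used.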

Additional observations from a re-analysis of the deposited data

Results flagged for a closer look

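*Eln* and *Mfap4* each passed 1.5-fold in opposite directions in different connective subclasses. The log2 ratio of *Eln*, *Smo* cKO over control, was 1.14 in skeletogenic and −1.38 in adventitial cells, and that of *Mfap4* was 0.83 and −0.62 in the same cells. With 1 library per genotype this difference between subclasses was not tested. Without proliferating cells the *Eln* values were 1.05 and −1.02, and with the shared barcodes left out 1.12 and −1.29. With at most 2000 genes per cell *Eln* in skeletogenic cells was at 0.57, under 1.5-fold, and adventitial cells were too few. For *Mfap4* in adventitial cells the mean over cells gave −0.24 and cells thinned to 2000 UMIs gave −0.03.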

How the results depend on the processing

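No paired analysis was possible because each genotype has 1 library, so replicates could not be left out and no result has a test. Depth limits small groups, such as the 15 and 32 epithelial-like or mesothelial-like cells. All values are log2 ratios, *Smo* cKO over control, unless named, and the cause of each move was not tested. Alternatives on shared barcodes, subclass boundaries and differing markers were chosen after seeing the data. All members but *Emilin1* kept their sign in connective-like cells under all 13 alternatives, and *Emilin1* did under 12 (−0.17 to 0.17).

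For the summed members in connective-like cells (0.07), the value was 0.17 with at most 2000 genes, 0.054 with mixed cells kept, 0.10 without proliferating cells, 0.0081 scaled by the median gene, 0.082 as a mean over cells, 0.18 at the control mix and 0.083 without shared barcodes. The number of members 1.5-fold higher (1) was 0 when scaled by the median gene, when thinned, at a 2-fold threshold and without boundary cells. The number lower (0) was 1 with at most 2000 genes, without proliferating cells, scaled by the median gene, as a mean over cells and when thinned.

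For *Sfrp4 Col14a1* cells (0.24) the summed value was 0.62 with at most 2000 genes, 0.21 with stricter gates, 0.28 without proliferating cells, 0.12 scaled by the median gene, 0.31 as a mean over cells, 0.33 when thinned, 0.29 without boundary cells and 0.17 without the differing markers. For activated cells (0.13) it was 0.29 with at most 2000 genes, 0.22 without proliferating cells, 0.23 as a mean over cells, 0.17 when thinned, 0.16 without shared barcodes and 0.093 without the differing markers. For skeletogenic cells (0.27) it was 0.22 with at most 2000 genes, 0.30 without the mitochondrial filter, 0.34 without proliferating cells, 0.42 without boundary cells and 0.19 without the differing markers. For tendon cells (0.33) it was 0.25 without proliferating cells, 0.29 scaled by the median gene, 0.29 as a mean over cells and 0.25 when thinned. For adventitial cells (−0.37) it was −0.27 without proliferating cells, −0.62 scaled by the median gene, −0.27 as a mean over cells and −0.29 when thinned. With at most 2000 genes, adventitial and tendon cells were under 50 in a library and were not computed, and *Fbn2* in activated cells reversed to 0.086.

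The mean share of cells with a UMI over the members differed by −1.68 percentage points when thinned to 2000 UMIs, −2.38 with at most 2000 genes, −0.48 when thinned to 1000 UMIs and 0.71 with no thinning. Of the 50 values of single members in subclasses, 16 had the other sign under at least 1 alternative, and 1 of these (*Fbn2* in activated cells) was past 1.5-fold. Of the 19 values past 1.5-fold, 11 were lost under at least 1 alternative and 8 were kept under all that were computed: *Fbln5* in *Sfrp4 Col14a1* and activated cells, *Mfap4* and *Fbln2* in skeletogenic cells, *Mfap5* in tendon cells, and *Eln*, *Fbln1* and *Fbln2* in adventitial cells. Leaving out boundary cells or the differing markers left the tendon and adventitial cells unchanged, so neither alternative could alter their values. *Mfap4* in activated cells was lost at 0.41 with at most 2000 genes and 0.54 without the differing markers, and *Eln* in *Sfrp4 Col14a1* cells at 0.57 with stricter gates. The 1 member lower in connective-like cells was *Fbln2* each time.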
